A study of Mus musculus with 8 samples.

Results

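The genes described here are 34 mouse genes that build the surface, the junctions and the signalling machinery of endothelial cells. They were taken from a written list, which was chosen with earlier results of these data known. All 34 were found among the 21883 protein-coding genes of the annotation, which holds 34610 genes when lncRNA genes are counted. By role the list has 5 junction and adhesion genes (Cdh5, Pecam1, Esam, Cldn5, Icam2) and 9 other surface genes, with the matrix glycoprotein Mmrn2 counted among them (Emcn, Cd34, Plvap, Clec14a, Mmrn2, Ecscr, Eng, Robo4, Tspan18). It also has 4 genes for secreted products or an enzyme (Egfl7, Vwf, Nos3, Apln), 3 G protein-coupled receptors (Aplnr, Gpr4, S1pr1), 4 Notch pathway genes (Notch1, Notch4, Dll4, Hey1), 3 SoxF transcription factors (Sox7, Sox17, Sox18) and 6 intracellular signalling genes (Rhoj, Rasip1, Arhgef15, Exoc3l2, She, Gimap4). For each gene, reads were summed over its locus, meaning the mm10 RefSeq gene with 1 kb on either side, and separately over the windows within 1 kb of its annotated ends.

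The question was how open the chromatin of mouse embryonic fibroblasts (MEFs) was before and 1 day into reprogramming by Etv2. NOMe-seq exposes chromatin to M.CviPI, a bacterial enzyme that methylates the cytosine of a GpC where the DNA is not wrapped in a nucleosome or otherwise covered, and bisulfite sequencing then reads the methylation. There were 4 groups of 2 libraries, all of genomic DNA from MEFs: control cells (day 0) without M.CviPI, control cells with M.CviPI, cells on day 1 of Etv2 reprogramming without it, and day 1 cells with it. Libraries without the enzyme are called untreated and give the background, and libraries with it are called treated. The labels name neither the strain of the MEFs nor the way Etv2 was delivered. They also leave unsaid if replicates are separate cultures, so every p-value measures only the spread between these samples, which may be technical. The level of a gene is the methylated share of its calls, where a call is 1 read over 1 cytosine, and it averages over all cells and both alleles, so a change in a few cells and a smaller change in all of them cannot be told apart.

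Endothelial cells line blood vessels. Cdh5 (VE-cadherin), Pecam1 and Cldn5 hold neighbouring cells together, Dll4 signals to the receptors Notch1 and Notch4 and thereby switches on targets such as Hey1, and Sox7, Sox17 and Sox18 act with ETS factors in vessel formation. Etv2 is an ETS factor that starts the endothelial and blood programmes in the embryo, and ETS factors bind DNA around the letters GGAA. Fibroblasts are not endothelial cells, and a gene that is shut in a cell type usually lies in chromatin where nucleosomes cover most of the DNA.

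Depth set what could be measured. The libraries held from 439527 to 1012656 cytosines and from 1693307 to 3577740 calls, the median cytosine had 3 reads in each library, and no cytosine had fewer. The 34 loci together received from 1615 to 3206 calls per library. Clec14a, a lectin-like surface protein, received no call in any library. Calls were present in all 8 libraries for 16 of the 34 genes (47.1%, against 44.5% of protein-coding genes). The minimum used for testing, 20 calls in every library, was met by 9 genes (26.5%, against 22.5%): Cdh5, Mmrn2, Eng, Tspan18, Vwf, Notch1, Notch4, Exoc3l2 and She. The long Vwf gene supplied 24.0% of all treated calls, and Vwf, Tspan18, Notch1, Notch4 and Eng together supplied 59.9%.

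**Figure D1:**
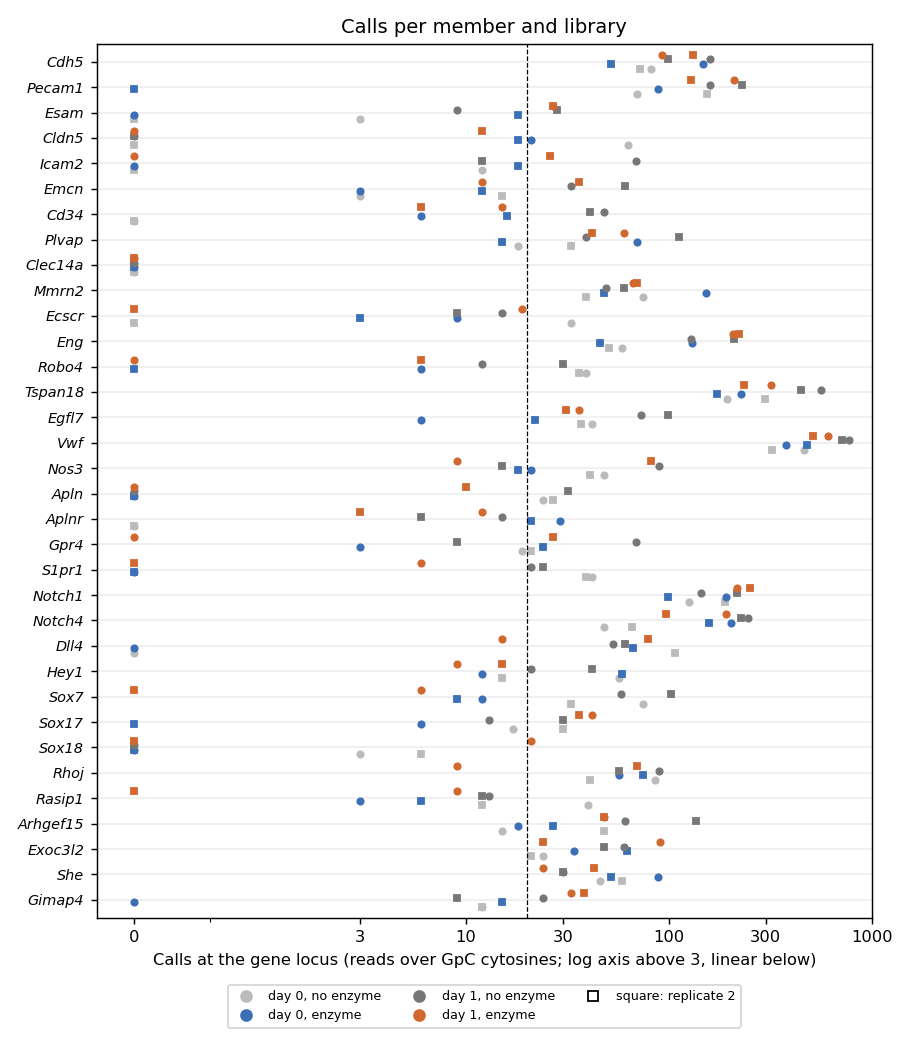
Calls at the locus of each of the 34 genes in each library; the horizontal axis counts reads over GpC cytosines and is logarithmic above 3 and linear below, circles are replicate 1 and squares replicate 2. The dashed line marks 20 calls, which only 9 genes reach in every library, and Clec14a sits at 0 throughout.

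Promoter sequences were available from RefSeq (GRCm38.p6, the mm10 assembly) for 17 of the 34 genes, in 19 windows that run from 250 bases before to 50 bases after a transcription start. Treated calls fell in 5 of the 19 windows (26.3%, against 22.3% of all 32851 windows of the table), and Exoc3l2 was the only gene with such calls on both days. The 250 bases before the start are shown for these 5 genes, because they are the promoters in which GpC cytosines were read; all are on the plus strand, and capitals mark the GC dinucleotides covered in at least 1 treated library. The windows are chr7:19463037-19463286 for Exoc3l2, chr17:34564045-34564294 for Notch4, chr1:194938571-194938820 for Cd34, chr16:18776597-18776846 for Cldn5 and chr2:32646345-32646594 for Eng.
Exoc3l2: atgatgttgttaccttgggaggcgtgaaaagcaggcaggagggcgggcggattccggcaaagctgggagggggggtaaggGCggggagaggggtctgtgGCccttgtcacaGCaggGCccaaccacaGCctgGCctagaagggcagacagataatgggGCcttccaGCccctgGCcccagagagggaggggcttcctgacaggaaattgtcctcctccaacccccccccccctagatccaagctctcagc
Notch4: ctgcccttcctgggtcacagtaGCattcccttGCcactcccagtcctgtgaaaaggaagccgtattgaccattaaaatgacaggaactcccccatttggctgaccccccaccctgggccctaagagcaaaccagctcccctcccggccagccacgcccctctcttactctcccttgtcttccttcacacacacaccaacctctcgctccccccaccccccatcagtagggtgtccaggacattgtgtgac
Cd34: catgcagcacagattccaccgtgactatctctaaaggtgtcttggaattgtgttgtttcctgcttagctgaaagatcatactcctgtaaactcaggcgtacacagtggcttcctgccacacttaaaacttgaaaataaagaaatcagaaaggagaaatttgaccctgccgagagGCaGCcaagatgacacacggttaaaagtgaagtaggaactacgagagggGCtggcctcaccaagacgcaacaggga
Cldn5: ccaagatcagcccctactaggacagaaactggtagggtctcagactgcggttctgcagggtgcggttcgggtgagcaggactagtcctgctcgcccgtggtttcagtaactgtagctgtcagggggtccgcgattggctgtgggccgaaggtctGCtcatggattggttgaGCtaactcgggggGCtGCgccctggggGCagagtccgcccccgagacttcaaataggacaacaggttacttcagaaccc
Eng: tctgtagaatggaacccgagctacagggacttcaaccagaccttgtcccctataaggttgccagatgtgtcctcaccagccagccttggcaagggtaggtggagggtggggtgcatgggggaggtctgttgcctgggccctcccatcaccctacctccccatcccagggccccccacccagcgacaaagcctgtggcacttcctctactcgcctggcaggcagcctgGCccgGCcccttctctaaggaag

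Position 1 is the first transcribed base and negative positions lie before it. In the Exoc3l2 promoter, 0 of 9 calls were methylated in day 0 treated replicate 2, at -92, -84 and -77. In day 1 treated replicate 1, 9 of 19 were methylated, at 6 cytosines from -170 to -118. These 2 sets of cytosines do not coincide and each was read in 1 library, so no cytosine there was compared between days. At Notch4, 2 of 19 calls were methylated at 11 to 34 in day 0 treated replicate 1, and 4 of 6 at -228 and -218 in replicate 2. At Cd34, a sialomucin of endothelial and blood progenitor cells, 9 of 15 calls were methylated in day 1 treated replicate 1. At Cldn5, the main claudin of endothelial tight junctions, 3 of 15 were methylated in day 0 treated replicate 2, and at Eng, a co-receptor for TGF-beta family ligands, 2 of 6 in day 0 treated replicate 1.

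The letters GGAA, the ETS core, were searched on both strands of the 300-base windows and were present in 18 of 19 (94.7%, against 96.0% of all windows). ACAAT, a core bound by SOX factors, was present in 47.4% against 31.0%, and AGATAA, which is bound by the factors named after its inner letters, in 5.26% against 11.2%. The site of the Notch effector RBPJ, TGGGAA, which includes the ETS core, was present in 15.8% against 25.6%. Cldn5 was the window without GGAA, and Exoc3l2 the window with AGATAA. A median of 40 cytosines per window were in GpC and not followed by G, against 34 in all windows. All 66210 deposited cytosines inside promoter windows, counted per library, were in GpC and none was followed by G, so cytosines that are also in CpG do not enter the promoter values. The context of cytosines elsewhere in the loci was not checked, and their levels are called GpC levels by extension.

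The enzyme left a clear mark on both days in the pooled levels and at the 9 testable genes. Thinly covered genes were not tested, and not all of them showed it. Emcn on day 0 had 27.8% of 18 calls methylated untreated and 6.67% of 15 treated. Pooled over the 34 loci, the untreated levels were 1.90% and 1.64% on day 0 and 1.02% and 1.09% on day 1, whereas the treated levels were 28.5% and 30.9% on day 0 and 31.3% and 32.5% on day 1. In edgeR's quasi-likelihood test on methylated and unmethylated counts, with Benjamini-Hochberg adjustment over 5654 loci, the enzyme raised the level at 9 of 9 genes on day 0 (98.8% of all loci tested) and at 9 of 9 on day 1 (99.9% of all loci). The largest adjusted p among the 9 was 0.0032 on day 0, at Exoc3l2, and 0.00609 on day 1, at She. Over whole loci in control fibroblasts, the level of the endothelial genes was near that of other genes. On day 0 the treated level was 29.7% ± 1.69 (SD, n = 2) at the 34 loci and 29.5% ± 0.129 over all protein-coding loci. Near the starts of the 17 genes of known strand the day 0 treated level was lower, though few calls from few genes were read. Within 1 kb of known starts it was 29.2% (141 calls, 45 of them from Notch4 and 39 from Cldn5), against 41.9% in protein-coding genes. In promoter windows it was 19.7% ± 5.19 (SD, n = 2, 55 calls), against 55.6%. These calls came from Notch4 (25), Cldn5 (15), Exoc3l2 (9) and Eng (6) alone. On day 1 the treated promoter level was 52.9%, against 50.7%, from 34 calls of Cd34 and Exoc3l2 in replicate 1. Far ends were higher on day 0, at 50.3% against 30.2%, but gave 24.6% without Notch4, which had 92.3% of 39 calls methylated there. These differences from other genes were not tested.

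**Figure D2:**
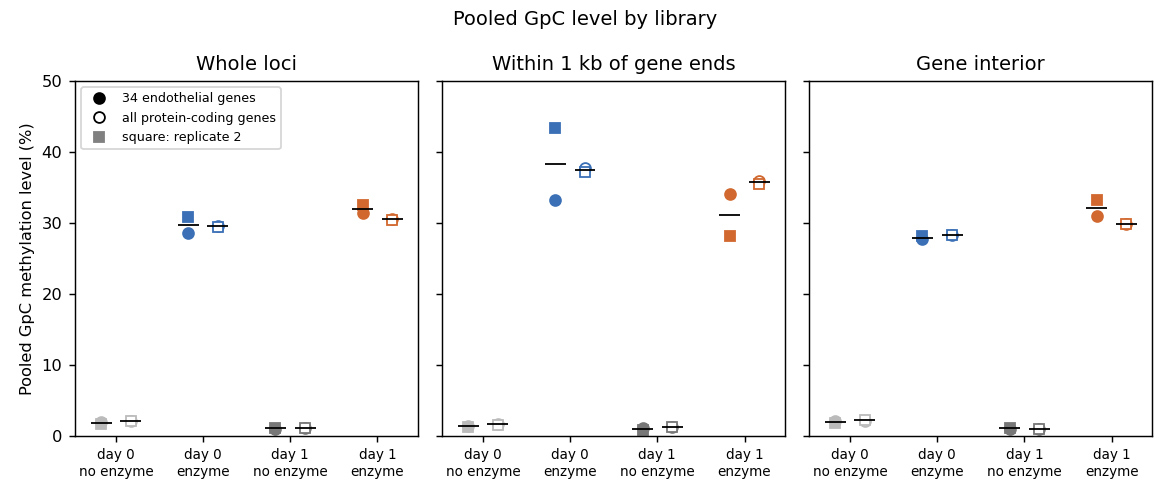
Pooled GpC methylation (percent of calls) in each library, in panels for whole loci, gene ends and gene interiors; filled points are the 34 genes, open points all protein-coding genes, squares replicate 2 and bars group means. At the loci the treated libraries lie between 28.5% and 32.5% and the untreated ones between 1.02% and 1.90%.

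From day 0 to day 1 the treated level of the 34 loci went from 29.7% ± 1.69 to 31.9% ± 0.833 (SD, n = 2 each), a difference of 2.22 percentage points, and the day 1 libraries both lay above the day 0 ones. All protein-coding loci moved the same way by 1.03 points, from 29.5% ± 0.129 to 30.5% ± 0.0738. Relative to protein-coding genes in the same library, the 34 genes stood at -1.07 and 1.49 points on day 0 and at 0.755 and 2.04 on day 1, and these ranges overlap. With 2 libraries against 2 an exact permutation test cannot go below p = 0.33, and no p is given for a sum over chosen genes. Without Vwf, the gene with most calls, the difference was 3.06 points, an alternative chosen after the data were seen. The 9 genes with 20 calls everywhere showed 2.11 points with overlapping libraries, and the other 25 genes 2.83 points without overlap, from 27.3% and 28.0% to 30.1% and 30.8%.

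Gene bodies and gene ends were then read apart. Inside the genes, away from the ends, the treated level was 27.7% and 28.2% on day 0 and 30.9% and 33.2% on day 1, where all protein-coding genes went from 28.3% to 29.8%. Within 1 kb of the ends it was 33.2% and 43.4% on day 0 and 34.1% and 28.1% on day 1, a mean 7.24 points lower with overlapping libraries, beside 37.4% and 35.7% in protein-coding genes. Between 283 and 311 calls per library stood behind the values at the ends. Notch4 and Hey1, the genes with most treated calls there on day 0, moved this value: without them the libraries gave 33.6% and 34.9%, then 34.1% and 26.9%, a choice made after the data were seen. The end windows of Notch4 had 19 of 48 and 31 of 36 calls methylated on day 0 but only 3 calls on day 1. Starts and far ends could be separated for the 17 genes of known strand. Their starts had 29.2% ± 0.632, then 35.0% ± 15.8, with overlap (141 and 73 calls). Their far ends had 50.3% ± 13.2, then 31.9% ± 8.72 (SD, n = 2), without overlap (96 and 261 calls). Without Notch4 the far ends gave 24.6%, then 30.4%, with overlap. Hey1, whose strand was not known, did not enter the values of starts and far ends. Protein-coding starts went from 41.9% to 38.8% and far ends from 30.2% to 31.9%. Plvap, the protein of the diaphragms in fenestrated endothelium, was the only gene with 10 calls at its ends in every treated library. Its end level was 13.3% (exact Clopper-Pearson 95% interval 1.66 to 40.5) and 33.3% (9.92 to 65.1) on day 0, and 23.8% (12.1 to 39.5) and 25.9% (11.1 to 46.3) on day 1, so any difference was within counting error. These intervals cover counting error only, and neighbouring cytosines on the same reads are not independent, so they are too narrow.

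Taken gene by gene, no endothelial gene passed the test between days. Of the 9 testable genes 0 were called in the treated libraries, beside 0% of all loci called higher and 0% called lower. At an unadjusted p under 0.05 edgeR had 0 of the 9 and 177 of all 5654 loci, and limma had 1 of the 9 and 70 of all, with 0 adjusted calls. The fitted change was above 0 for 7 of the 9 genes (59.0% of all loci), and its median on the log2 odds scale was 0.12 (0.10 for all loci). In simulated data with the real coverage edgeR found 45 of 100 changes of 2 on that scale and 7 of 100 changes of 1, while limma found 2 and 0 and could hardly have made a call, so changes of 1 or less were mostly not detectable at this depth. Standard errors from limma ran from 0.42 for Vwf to 0.75 for Mmrn2. The treated libraries of day 1 lay above those of day 0 without overlap at 4 of the 9 genes (23.2% of all loci) and below at 1 (12.8% of all loci).

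**Figure D3:**
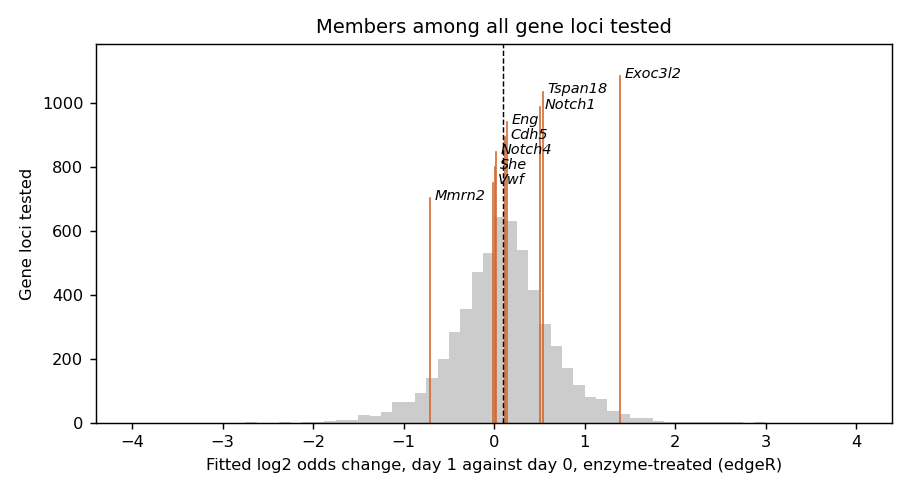
Fitted change of the treated level from day 0 to day 1 (log2 odds, edgeR) for the 5654 loci tested, as a histogram of loci; vertical lines are the 9 testable endothelial genes and the dashed line is the median of all loci. The 9 genes run from -0.71 at Mmrn2 to 1.39 at Exoc3l2, which lies furthest from the median of all loci.

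Among the junction genes Cdh5 alone was testable. Its locus (chr8:104101613-104144504) had treated levels of 27.9% and 25% on day 0 and 28.0% and 29.0% on day 1, from 147, 52, 93 and 131 calls. The libraries do not overlap, but by a margin of less than 1 call, and the fitted change was 0.12 on the log2 odds scale (edgeR adjusted p = 0.999). Its untreated levels were 1.22% and 4.17% on day 0, and 0 of 160 and 0 of 99 calls on day 1, which allow up to 1.88% and 3.03%. Pecam1, a homophilic adhesion molecule of endothelial and blood cells, had no call in day 0 treated replicate 2, 18 of 88 methylated in replicate 1, and 64 of 210 and 33 of 129 on day 1. The 5 junction genes pooled gave 25% and 26.4%, then 32.4% and 28.3%, without overlap, but day 0 replicate 2 rests on 106 calls against 256 to 330 in the others.

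Of the surface genes Eng, Tspan18 and Mmrn2 were testable. Eng (chr2:32646595-32682669) had treated levels of 23.8% and 30.4% on day 0 and 27.9% and 28.5% on day 1, which overlap (0.14 on the log2 odds scale, edgeR adjusted p = 0.999, and below 0 when libraries are centred on their median). Tspan18 (chr2:93201760-93334551), a tetraspanin, had 31.3% and 24.9%, then 37.5% and 34.9%. Its day 1 libraries lie above the day 0 ones, from 173 to 320 calls, and the fitted change was 0.54 (edgeR adjusted p = 0.999). Mmrn2 (chr14:34375504-34404287), a matrix glycoprotein that binds Clec14a, was the only testable gene whose day 1 libraries were lower without overlap, at 35.5% and 43.8%, then 25.4% and 30% (fitted change -0.71, edgeR adjusted p = 0.999). Of the 9 surface genes pooled the libraries gave 29.2% and 28.4%, then 32.5% and 30.4%.

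Vwf (chr6:125552948-125686679), which encodes von Willebrand factor, was the best measured gene. Its treated levels were 29.8% (379 calls) and 32.8% (482) on day 0 and 28.5% (606) and 33.8% (515) on day 1. These libraries overlap, the fitted change was -0.01 (edgeR adjusted p = 0.999), and across the 15 settings tried it stayed between -0.19 and 0.16. Egfl7, a secreted vessel factor, had 0 of 6 and 1 of 22 treated calls methylated on day 0 and 7 of 36 and 5 of 31 on day 1. Its untreated level also rose without overlap, from 0% of 79 calls on day 0 to 6.395% of 172 calls on day 1. The part of this background in the treated change was not tested. Nos3, the endothelial nitric oxide synthase, had 9 of 21 and 7 of 18, then 3 of 9 and 26 of 82. The secreted and enzyme group pooled gave 30% and 31.8%, then 28.1% and 32.6%, with overlap.

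Notch1 (chr2:26457902-26503822) had treated levels of 28.1% and 29.3% on day 0 and 37.6% and 35.1% on day 1, from 99 to 251 calls. All day 1 values lie above the day 0 values, and the replicates of each day are close, but the fitted change of 0.51 did not pass (edgeR adjusted p = 0.999). Its untreated levels were 0 of 126 calls, which allows up to 2.38%, and 0.529% on day 0, then 1.39% and 0.926% on day 1. Notch4 (chr17:34564286-34588543), the Notch receptor largely restricted to endothelium, had 29.6% and 35.4%, then 29.3% and 37.1%, which overlap (0.02, edgeR adjusted p = 0.999). Dll4 had no treated call in day 0 replicate 1, 13 of 67 methylated in replicate 2, and 6 of 15 and 27 of 79 on day 1. Hey1 had 0 of 12 and 27 of 59, then 1 of 9 and 6 of 15. Its replicates on day 0 were far apart. The 4 Notch genes pooled gave 28.0% and 32.6%, then 33.5% and 35.5%, without overlap.

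Of the intracellular signalling genes Exoc3l2, related to the exocyst, and She, an SH2-domain adaptor, were testable. Exoc3l2 (chr7:19463287-19496762) had the largest fitted change of the 9 genes, 1.39 on the log2 odds scale (unadjusted p = 0.0821, edgeR adjusted p = 0.999), which was 0.78 without day 0 treated replicate 1 and 2.59 without day 0 treated replicate 2. Its treated levels were 11.8% (exact Clopper-Pearson 95% interval 3.3 to 27.5, 34 calls) and 32.3% (20.9 to 45.3, 62 calls) on day 0. On day 1 they were 42.9% (32.5 to 53.7, 91 calls) and 50% (29.1 to 70.9, 24 calls). The day 1 libraries lie above, while the day 0 replicates differ by 20.5 points, the widest gap of the 9. The calls came from few places, since cytosines within 500 bp of each other formed 3, 6, 6 and 2 clusters. She (chr3:89831370-89858846) had 21.6% and 40.4%, then 25% and 32.6%, with day 1 inside the range of day 0 (0.01, edgeR adjusted p = 1.00, a sign that turns in several settings). The group pooled gave 27% and 33.8%, then 32.2% and 35.0%, with overlap.

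**Figure D4:**
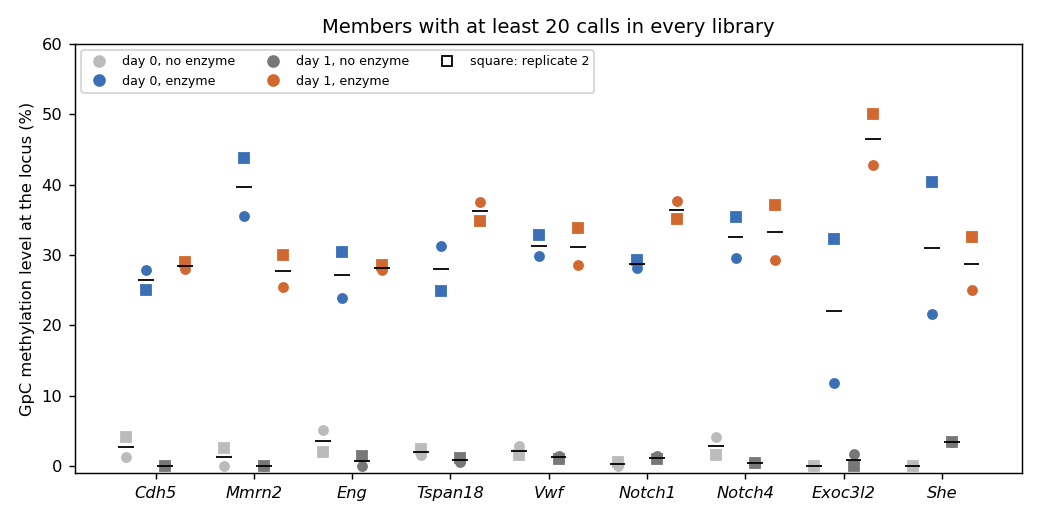
Treated and untreated GpC methylation level (percent of calls) of the 9 testable genes in each library; points are libraries, circles replicate 1, squares replicate 2 and bars group means. Exoc3l2 and She show the widest gaps between day 0 replicates, and Notch1, Tspan18, Exoc3l2 and Cdh5 have both day 1 treated libraries above day 0.

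The receptors and the SoxF factors are short genes and were thinly covered. Aplnr, Gpr4 and S1pr1 pooled gave 31.2% and 17.8% on day 0 and 61.1% and 40.0% on day 1, from 32, 45, 18 and 30 calls. The day 1 libraries are higher, but S1pr1 had no treated call on day 0 and the same receptors did not contribute in each library. The SoxF genes pooled gave 44.4% and 33.3%, then 20.3% and 47.2%, from 18, 9, 69 and 36 calls, with day 1 spanning day 0. Sox18 had treated calls in 1 library only, 2 of 21 methylated. Apln, the apelin ligand of Aplnr, was read in 1 treated library, with 3 of 10 methylated.

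**Figure D5:**
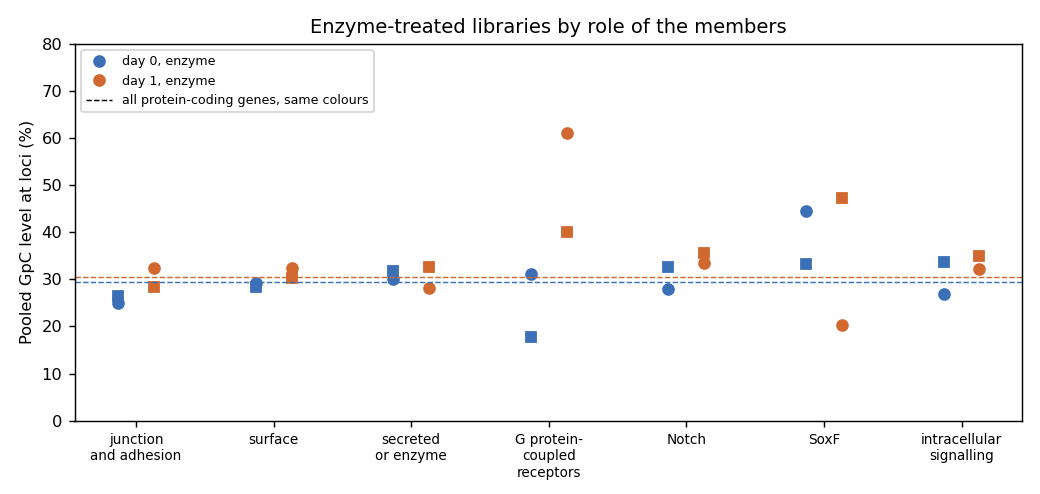
Treated GpC level (percent of calls, pooled over the genes of each role) per library; circles are replicate 1, squares replicate 2, and dashed lines the mean over all protein-coding genes on each day. Groups other than the receptors and SoxF genes lie between 25% and 35.5%, and the widest spreads are those of the G protein-coupled receptors (18 to 45 calls) and SoxF genes (9 to 69 calls).

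The remaining genes had few calls in the treated libraries. Rhoj had 23 of 57 and 24 of 75 calls methylated, then 4 of 9 and 18 of 70. Plvap had 9 of 70 and 5 of 15, then 18 of 60 and 12 of 42 over its locus. Arhgef15 had 8 of 18 and 8 of 27, then 11 of 48 and 21 of 48. These 3 genes have overlapping days. Esam, Cldn5, Icam2, Emcn, Cd34, Ecscr, Robo4, Rasip1, Gimap4, Sox7 and Sox17 had at most 86 treated calls each over the 4 libraries together, and Gimap4 had the most of these.

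The change in coverage of these genes was also read by chromosome. The 4 genes on chromosome 3 (Hey1, She, S1pr1, Emcn) had 0.642 times as many treated calls on day 1 as on day 0, Rhoj and Clec14a on chromosome 12 had 0.598 times, and the other 28 genes had 1.42 times. All protein-coding loci had 1.38 times. In the untreated libraries the same sets had 0.949, 1.16 and 1.82 times, and all protein-coding loci 1.95 times. Whole chromosomes were not compared here. The ratios on chromosomes 3 and 12 rest on few genes and were not uniform. In the treated libraries Hey1 (0.338) and She (0.479) fell while Emcn (3.20) rose, and Clec14a had no call. Some genes elsewhere fell as well, such as Mmrn2 (0.685) and Notch4 (0.798). Without the 6 genes on chromosomes 3 and 12 the treated level went from 29.4% ± 1.04 to 32.2% ± 1.03 (SD, n = 2), a difference of 2.82 points. Part of a locus can belong to another gene, since 16 of the 34 loci overlap another annotated gene (12 by the gene alone), for example Eng with Fpgs and Nos3 with Atg9b.

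Without the enzyme the day difference had the opposite sign. The untreated level was 1.77% ± 0.185 on day 0 and 1.06% ± 0.0518 on day 1 (SD, n = 2) at the 34 loci, and 2.07% ± 0.041 and 1.03% ± 0.00326 at all protein-coding loci, with day 1 libraries below day 0 in both. Of the 9 testable genes edgeR called 0, beside 0.0707% of all loci called higher and 5.16% called lower, with 1 of the 9 and 17.5% of all loci at an unadjusted p under 0.05. limma called 3 of the 9 lower (Eng, Cdh5 and Notch4) and 16.7% of all loci, but 0 of the 9 once libraries were centred on their median. Over all loci edgeR called 4 higher and 292 lower, and limma with centring 5 higher and 2 lower. Untreated day 1 libraries lay below day 0 at 5 genes (34.2% of all loci), namely Eng, Tspan18, Vwf, Cdh5 and Notch4, and above at Notch1 and She (5.52%). Eng had 5.08% and 1.96% on day 0, then 0 of 128 calls, which allows up to 2.34%, and 1.44%. She had 0 of 46 and 0 of 59 calls, then 1 of 30 in each library. When the untreated change was subtracted in the fit, which uses the same libraries again, 0 of the 9 genes were called, beside 3.54% of all loci higher and 0% lower, with 2 of the 9 (Tspan18 and Cdh5) and 17.2% of all loci at an unadjusted p under 0.05.

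At single cytosines the treated reads were mostly mixed. On day 0, 34.01% ± 0.13 of covered cytosines at the 34 loci had no methylated read, 62.3% ± 0.935 had some and 3.70% ± 1.07 had only methylated reads (SD, n = 2). On day 1 these shares were 31.9% ± 2.82, 64.8% ± 2.24 and 3.25% ± 0.58. All protein-coding genes had similar shares, 35.81%, 60.51% and 3.682% on day 0 and 33.97%, 62.41% and 3.617% on day 1. At the 34 loci 86.47% of the covered cytosines on day 0 and 89.31% on day 1 had 3 reads. The shares therefore depend on depth as well as on the level, and a difference from other genes was not tested. Of 2607 cytosines covered in a treated library 0 were covered in all 4, so no single cytosine could be followed over the day. Of 479 windows of 1 kb, 4 had calls in all 4 treated libraries, of which Vwf holds 2, and Mmrn2 and Notch4 hold 1 each. In the Mmrn2 window (chr14:34398001-34399000) 11 of 47 and 8 of 15 calls were methylated on day 0, then 6 of 12 and 5 of 25. In the Notch4 window (chr17:34571001-34572000) the calls were 3 of 12 and 4 of 24, then 3 of 12 and 9 of 27. Neither window separates the days.

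Other genes of the same pathways, 75 in all, were looked at for comparison, and 32 were testable. Their pooled treated level was 29.9% on both days (± 1.16 and ± 0.817, SD, n = 2). In the treated libraries 0 of 32 were called. The smallest p-values there were those of Bmpr2, a BMP receptor (2.10 on the log2 odds scale), Robo1, a receptor for Slit (0.60), Smad7, an inhibitory Smad (-1.26), and Adgrf5, an adhesion receptor (-0.68), each with an edgeR adjusted p of 0.999. In the untreated libraries 3 of 32 were called lower on day 1 (5.16% of all loci). The untreated level of the semaphorin receptor Plxnd1 fell by 2.06 on the log2 odds scale (edgeR adjusted p = 0.0177), that of the polarity protein Pard3 by 2.62 (edgeR adjusted p = 0.000117) and that of Robo1 by 3.31 (edgeR adjusted p = 0.0122). Of these calls the one of Plxnd1 was lost without day 0 untreated replicate 2 (edgeR adjusted p = 0.438) and without any 1 of the 4 day 1 libraries (0.0536 to 0.0862), and the one of Robo1 without day 0 untreated replicate 2 (0.0606) or day 1 untreated replicate 2 (0.112). With centring in limma 0 of the 32 were called. Net of the untreated change, Pard3 (2.77, edgeR adjusted p = 0.000965) and Robo1 (3.91, edgeR adjusted p = 0.0105) were called higher, beside 3.54% of all loci. The net call of Robo1 was lost without day 1 treated replicate 1 (edgeR adjusted p = 0.122), day 1 treated replicate 2 (0.0906) or day 1 untreated replicate 2 (0.0632), and limma called neither (adjusted p = 0.0511 for both). The treated mean of Pard3 was 28.2% ± 2.39 on day 0 and 30.3% ± 1.64 on day 1, and its untreated mean 2.84% ± 1.09 and 0.445% ± 0.0829 (SD, n = 2). For Robo1 the treated means were 19.3% ± 0.298 and 26.6% ± 1.96, and the untreated ones 4.86% ± 0.67 and 0.495% ± 0.393 (SD, n = 2).

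Loci of marker genes of other cells were read in the same way, although a GpC level does not say which cells were present. The 12 fibroblast genes had treated levels of 39.8% and 29.2%, then 32.4% and 30.8%, the 5 blood genes 24.6% and 29.0%, then 25.8% and 26.9%, and the 4 epithelial genes 18.8% and 32.0%, then 37.1% and 35.3%. The fibroblast and blood genes overlap between days, and the epithelial genes do not. The part of cell composition in the endothelial values was not tested.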

How the data were processed

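NOMe-seq libraries were deposited as 1 table per library with 1 line per cytosine. Column meanings were read from the values: the authors gave each cytosine a methylated fraction and, in the next column, the count of reads over it, and the genome build is mm10 per the submitters' processing notes. For the aligner, the caller, duplicate reads and the minimum of 3 reads seen in the files, a description is not given in the sources used here. Fraction times count, rounded, gave the methylated reads, and cytosines with over 100 reads were left out. Gene spans and promoter windows came from RefSeq tables, and strand was known for 17 of the 34 genes.

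Reads were summed per gene locus (1 kb on either side) and within 1 kb of gene ends. Loci with 20 calls in every library (5654) were fitted in edgeR 4.0.16 (R 4.3.3; quasi-likelihood, a term per library and a methylation term per group, Benjamini-Hochberg threshold 0.05), and limma 3.58.1 on log2((methylated + 1)/(unmethylated + 1)) was an alternative. The edgeR and limma day tests were tested on simulated data (200 changed loci, SD of 0.3 in natural log odds, real coverage); edgeR made 0 false calls among 5454 unchanged loci. Python 3.11.15, numpy 2.4.6, pandas 2.3.3 and scipy 1.17.1 did the rest. Intervals are exact Clopper-Pearson at 95%, and the limit of a 0 is 3 calls of the total; both cover counting error only.

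The members, roles, related genes and tests were chosen with earlier results of these data known. Values in every library are given for genes with 20 calls in every library, and at gene ends for genes with 10 in every treated library. Related genes are named if they passed any day contrast, or else as the 2 smallest p in each direction; the others named were chosen after their values were seen. Other settings tried were the read limits, window widths, equal weights, shared windows, call minimums, limma, centring, a replicate block and leaving out each library. Equal weights used only genes with 10 calls in every library compared.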

Additional observations from a re-analysis of the deposited data

How the results depend on the processing

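Depth limits these results: values rest on 3 reads per cytosine, on different cytosines in each library and on few genes. The pooled treated difference at the 34 loci (2.22 points) turned to -39.4 points with cytosines of at least 5 reads, where 25, 5, 15 and 82 calls were left. It ran from 1.02 to 3.41 points when 1 library was left out. The difference from protein-coding genes (1.19 points more on day 1) became -41.0 with at least 5 reads and 0.233 in 1 kb windows shared by the treated libraries, and ran from -0.0986, without day 0 treated replicate 1, to 2.47. At gene ends the difference of -7.24 points became 4.61 with 500 bp on either side and ran from -12.4 to -2.12 with 1 library left out. Equal weights gave 1.53, but this is Plvap alone, the only gene with the 10 calls required in every treated library. Cytosines of at least 5 reads and shared 1 kb windows gave no value, and 0 members had 10 calls in every library for a fit at ends. The untreated difference of -0.719 points became -0.0875 with at least 5 reads, -0.234 with equal weights and 0.962 in shared windows, where 1 call was methylated, and ran from -0.849 to -0.588. Some of these settings left fewer calls, and the cause of the shifts was not tested.

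Under each setting run, 0 members were called for the day change in treated libraries and for it net of untreated, of 9 to 15 tested. Untreated calls went from 0 to 3 with limma. Enzyme calls went from 9 of 9 to 14 of 15 with 5 calls as the minimum, on both days, and to 0 when libraries were centred on their median, which removes the common effect of the enzyme by construction; without day 0 treated replicate 2, Exoc3l2 was not called on day 0 (edgeR adjusted p = 0.0587), and without day 1 treated replicate 2, She was not called on day 1 (edgeR adjusted p = 0.0658). Same-numbered libraries did not deviate together (correlations from -0.0241 to 0.0188 over 5654 loci), but counting error at this depth weakens such correlations and could hide a pairing. In the main fit each number was treated only as a name. With the replicate number as a block, no call of the 9 genes changed, 217 loci instead of 292 were lower untreated and 135 instead of 200 higher net of it. The 292 became 942 with limma, 2 with centring and 158 to 198 with 1 library left out. The 200 became 1 with limma, 0 with centring, 14 without day 1 treated replicate 2, 22 without day 1 treated replicate 1, 66 and 85 without day 0 treated replicates 1 and 2, and 138 to 196 without 1 untreated library.

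Signs of small fitted treated changes turned. She gave -0.00199 and -0.00981 with minimums of 10 and 5 calls, -0.0463 in limma, -0.14 centred and -0.14 with the block. Centring gave -0.0345 for Eng and -0.0441 for Notch4. With 1 library left out the values ran from -0.16 to 0.33 for Eng, -0.68 to 0.61 for She, -0.19 to 0.16 for Vwf and -0.21 to 0.30 for Notch4. Centred, the untreated change of Vwf was 0.17, and the enzyme effect was -0.93 for Eng, -1.07 for Exoc3l2, -0.48 for Cdh5 and -0.33 for Notch4 on day 0, and -2.23 for She and -0.47 for Mmrn2 on day 1.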
